A study of Mus musculus with 9 samples.

Results

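The 10 genes described here are the Gadd45 family (Gadd45a, Gadd45b and Gadd45g), the gene of p53 itself (Trp53), its inhibitor Mdm2, and 5 textbook p53 targets (Cdkn1a, Ccng1, Sesn1, Sesn2 and Trp53inp1). They were taken by gene name from 20897 genes tested on a whole-genome array of mouse dorsal root ganglia (DRG), the ganglia that hold the cell bodies of sensory neurons. Gadd45a was chosen by its strong rise after nerve injury in these arrays, so its values are given as a description without a test. The other 9 genes are its relatives, p53, Mdm2 and known targets, taken to ask whether other p53 targets rose with it, and they were chosen with results of these arrays already known. All 10 genes were on the array, by 18 probes, and every probe was well above background in the DRG channel on all 9 arrays.

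The arrays compared 4 samples of uninjured L3/L4 DRG with 5 samples of L3/L4 DRG taken 3 days after sciatic nerve transection, which cuts the axons of many of these neurons. All samples came from adult mice, with the labels cre.neg and jun.wt in both groups; strain, sex and whether the uninjured ganglia came from the other side of injured mice were not given in the sources used here. DRG RNA was labelled with Cy5 and hybridised beside a universal mouse reference RNA in Cy3, with no dye swap. Values are log2 ratios of DRG over that reference, and a fold change compares the same probe between injured and uninjured DRG. A whole ganglion holds neurons, glia and immune cells, so a lower value could come from fewer cells of a type or less RNA per cell, which cannot be told apart here, and the same holds for a higher one.

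p53 is a transcription factor that is held at a low level by Mdm2, a ubiquitin ligase whose own gene is a p53 target, so that p53 activity is set largely at the protein level and is often read from its target transcripts. Among these targets, Cdkn1a encodes p21, an inhibitor of cyclin-dependent kinases, and the sestrins restrain growth signalling and oxidative stress. The Gadd45 proteins are small stress-induced proteins without enzyme activity that bind partners such as PCNA, p21, Cdk1 and the kinase Map3k4, and they take part in growth arrest, DNA repair and DNA demethylation. Gadd45a can be induced by p53 and also without it, for example through ATF4, Jun or the octamer-binding factor Oct-1. In sensory neurons, Gadd45a is known as a gene induced when the axon is cut.

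The bases just before the gene starts are shown for the 3 Gadd45 genes, because these near relatives responded differently. Bases before the start are also shown for Cdkn1a and Ccng1, which hold a p53-type site there but also differed in response. Cdkn1a had more than 1 start, and its 100 bases lie just before the start that has this site. For Ccng1, the 100 bases shown begin 250 bases before the start and do not reach it. All sequences are from RefSeq (GRCm38.p6), written 5′ to 3′ on the gene's own strand. In the Gadd45 sequences, capitals mark matches on either strand to the octamer ATGCAAAT, to CCAAT or to the ATF4 composite TGATGNAA. In Cdkn1a and Ccng1, capitals mark a p53 full site of 20 bases with no spacer and at most 1 mismatch.
Gadd45a, chr6:67037408-67037657, minus strand: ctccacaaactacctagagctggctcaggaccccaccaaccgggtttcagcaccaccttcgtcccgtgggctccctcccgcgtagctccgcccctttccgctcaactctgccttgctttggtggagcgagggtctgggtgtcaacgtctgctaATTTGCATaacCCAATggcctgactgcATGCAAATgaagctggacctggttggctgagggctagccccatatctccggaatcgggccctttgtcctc
Gadd45g, chr13:51846425-51846674, plus strand: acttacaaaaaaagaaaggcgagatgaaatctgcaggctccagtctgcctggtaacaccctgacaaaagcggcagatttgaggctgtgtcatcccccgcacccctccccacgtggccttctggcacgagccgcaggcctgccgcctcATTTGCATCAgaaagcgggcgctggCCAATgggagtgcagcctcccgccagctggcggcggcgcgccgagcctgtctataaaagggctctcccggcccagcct
Gadd45b, chr10:80929841-80930090, plus strand: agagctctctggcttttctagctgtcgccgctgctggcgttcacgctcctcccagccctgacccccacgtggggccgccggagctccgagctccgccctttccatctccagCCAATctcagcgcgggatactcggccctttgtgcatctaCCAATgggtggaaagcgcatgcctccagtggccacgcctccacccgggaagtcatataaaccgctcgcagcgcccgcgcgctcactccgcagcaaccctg
Cdkn1a, chr17:29090879-29090978, plus strand: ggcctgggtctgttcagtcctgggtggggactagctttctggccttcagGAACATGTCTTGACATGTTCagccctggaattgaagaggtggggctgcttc
Ccng1, chr11:40755437-40755536, minus strand: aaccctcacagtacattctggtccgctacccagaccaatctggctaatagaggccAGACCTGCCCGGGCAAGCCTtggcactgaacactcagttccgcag

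RefSeq windows from 250 bases before to 50 bases after a gene start were held for 9 of the 10 genes, without Trp53inp1, and Cdkn1a and Sesn1 had more than 1 start. The octamer was found on either strand in the windows of Gadd45a and Gadd45g alone among the 9 genes, and in 1.74% of all 32851 windows. Gadd45a held it on both strands around a CCAAT box, and in Gadd45g it overlapped the ATF4 composite, which 3.97% of all windows held. CCAAT was common, in 37.4% of all windows and in 8 of the 9 genes, and neither the AP-1 site TGANTCA (7.81% of windows) nor the cyclic AMP response element TGACGTCA (1.79%) was found in any of the 9. A p53 full site was found in Cdkn1a and Ccng1 and in 0.0883% of all windows, while single p53 half-sites of 10 bases lay in 6 of the 9 genes and 8.36% of all windows. Sites outside these windows, and full sites with a spacer, were not searched, so a gene without a match may still hold a p53 site. A match is a description of these letters, and binding was not measured.

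On the arrays, 71.0% to 78.9% of spots were well above background in the DRG channel, and the median brightness over background was lowest on injured 5 (109, against 147 to 192 on the other 8). The arrays lay on 3 slides: slide 1 held uninjured 1 with injured 1, 2 and 5, slide 2 held the other 3 uninjured arrays and slide 3 the other 2 injured arrays. Slide and injury therefore overlap in large part, and values within slide 1, which rest on a single uninjured array, are given for each of the 10 genes. All 8 sensory neuron markers passed the filter on brightness, and 1 of them passed the threshold (Isl1, which fell by 0.51). Rises passed for 2 of 8 macrophage markers (Aif1 by 0.90 and Itgam by 0.50) and 1 of 6 satellite glia markers (Glul, by 0.78). The same held for 1 of 4 endothelial markers (Tek, by 0.47), and for none of 6 Schwann cell, 4 red blood cell or 5 skeletal muscle markers. Of all genes tested, 25.3% passed, 11.4% higher and 13.9% lower. As a mean over the list, after subtracting the mean of the uninjured arrays from the log2 ratios, the muscle markers nevertheless ran from 0.047 to 3.54 over the injured arrays, highest on injured 4 and then injured 2, against -0.076 to 0.12 over the uninjured arrays. On the same scale, the mean of the macrophage markers ran from 0.091 to 0.99 over injured and from -0.39 to 0.39 over uninjured arrays, and that of the red blood cell markers from -0.054 to 1.57 and from -0.25 to 0.31. The part of these cells in the results below was not tested, and the counts for the 10 genes and for the p53 targets are also given without injured 2 and 4.

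Of the 10 genes, 7 passed the threshold of an adjusted p under 0.05 (limma, Benjamini-Hochberg over all genes), 6 of them higher and 1 lower after injury, against 25.3% of all genes tested, 11.4% higher and 13.9% lower. Without Gadd45a, 6 of 9 passed, 5 higher and 1 lower. The injured and uninjured arrays did not overlap for 6 of the 10, all higher and Gadd45a among them. Over all genes this held for 23.8% in either direction, 10.8% higher and 13% lower. The median change of the 10, Gadd45a included, was 0.38 on the log2 scale, against 0.0014 for all genes. Among the other 9, the middle value was that of Mdm2 (0.30). The sizes fell into steps, with 4 genes more than 1 log2 unit higher (Gadd45a, Gadd45g, Cdkn1a and Sesn2) and the other 6 between -0.33 and 0.47.

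With the slide as a fixed block, which leaves slide 1 to carry the comparison, 4 of the 10 passed, all higher. Under that setting 1184 of all 20897 genes passed. Without Gadd45a it was 3 of 9 (Gadd45g, Cdkn1a and Sesn2), and Trp53inp1, Mdm2 and Sesn1 did not pass. With the arrays centred on their medians in place of loess, again 4 passed, all higher, against 2657 of all 20897 genes. With the ratios of the scanner software 6 passed, all higher, against 4466 of all 20897 genes. Without injured 2 and 4, 6 passed, all higher, against 3007 of all genes tested. Under each of these settings, the slide block included, fewer of all genes passed than the 25.3% above.

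**Figure D1:**
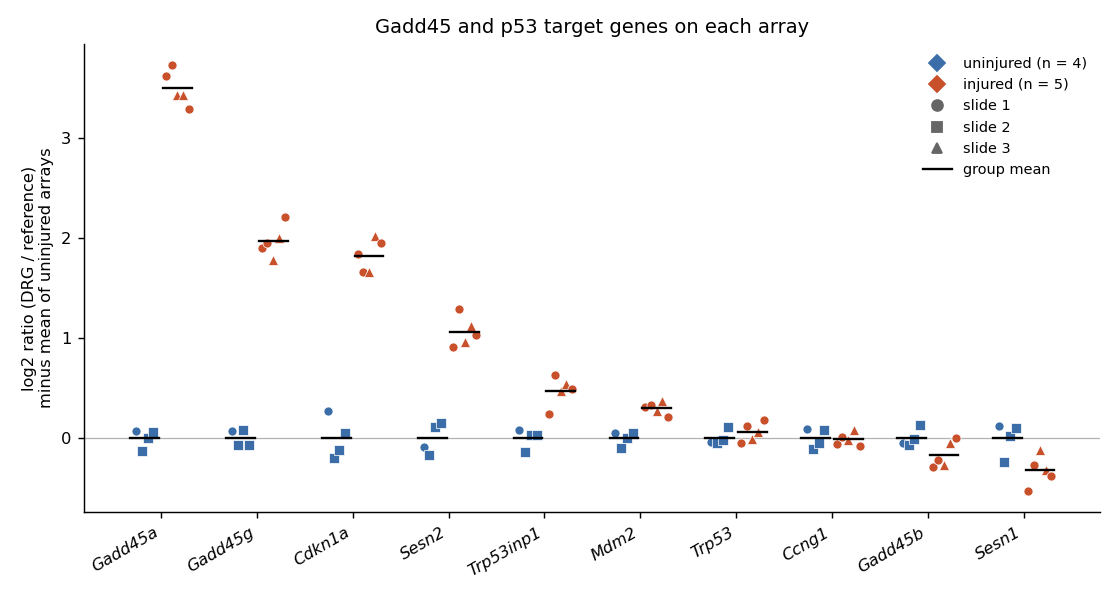
Log2 ratio of each of the 10 genes on each array, minus the mean of the uninjured arrays (y axis), with blue points for the 4 uninjured and orange points for the 5 injured arrays, point shapes for the 3 slides and black lines for group means. The injured arrays of Gadd45a, Gadd45g, Cdkn1a and Sesn2 stand well above the uninjured ones on both slides that hold injured arrays, Trp53inp1 and Mdm2 lie a little above, and the other 4 genes overlap.

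Within the Gadd45 family, Gadd45a and Gadd45g were far higher after injury and Gadd45b was not. Gadd45a, measured by a probe at mm7 chr6:67017167-67017226, had log2 ratios of -1.22, -1.42, -1.29 and -1.23 on the uninjured arrays and 2.33, 2.43, 2.14, 2.13 and 1.99 on the injured arrays. It was thus below the reference in all uninjured DRG and above it in all injured DRG, with no array between. The difference was 3.50 (SE 0.092), or 11.3-fold, which ranked 5 among the rises of all genes. The value within slide 1 was 3.47, and over 23 alternative settings it ran from 3.41 to 3.58.

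Gadd45g, which encodes the family member also known from cytokine signalling, had log2 ratios of -0.55, -0.70, -0.54 and -0.69 on the uninjured arrays and 1.27, 1.33, 1.16, 1.37 and 1.58 on the injured arrays (mm7 chr13:50882456-50882515). The groups were separated with the lowest injured array far above the highest uninjured one. It rose by 1.96 (SE 0.085, adjusted p = 1.81e-07), or 3.90-fold, and by 1.95 within slide 1. Its rise ranked 55 among all genes, so both genes lie among the strongest responses in the ganglion.

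Gadd45b, an immediate early gene in many cells, had log2 ratios of -2.11, -2.14, -2.08 and -1.93 on the uninjured arrays and -2.35, -2.29, -2.34, -2.12 and -2.06 on the injured arrays. The groups overlapped, with injured 4 and 5 inside the uninjured range. The difference of -0.17 (SE 0.079) did not pass (adjusted p = 0.153), and it was -0.12 within slide 1. A further, slightly dimmer probe of Gadd45b gave -0.33 (SE 0.063, adjusted p = 0.00347 over all probes) with no overlap between groups, and the mean of both probes, -0.25, also passed (adjusted p = 0.0181). The brightest probe passed with the slide as a random block (-0.18, adjusted p = 0.0455), so that whether a small fall is called depends on the probe and on the model.

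The transcript of p53 itself did not pass the threshold. Trp53 had log2 ratios of 0.44, 0.43, 0.46 and 0.58 on the uninjured arrays and 0.42, 0.59, 0.47, 0.54 and 0.66 on the injured arrays. The 2 groups lay over each other, with a difference of 0.058 (SE 0.065, adjusted p = 0.568) and 0.12 within slide 1. A dimmer probe spotted 10 times on each array gave 0.19 (SE 0.095, adjusted p = 0.189 over all probes), and the DRG channel taken alone, without the reference, gave 0.40 (adjusted p = 0.0236). The change was -0.020 with median centring, so that neither its sign nor its call was fixed by these arrays.

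Mdm2 was slightly higher after injury. Its log2 ratios were -1.12, -1.28, -1.17 and -1.12 on the uninjured arrays and -0.86, -0.84, -0.90, -0.80 and -0.96 on the injured arrays, with a narrow gap between groups. The rise was 0.30 (SE 0.059, adjusted p = 0.00419), or 1.23-fold, and a further probe with 10 spots per array gave 0.32 (SE 0.072, adjusted p = 0.00818 over all probes). The value within slide 1 was 0.23, and the call was lost with the slide as a block (adjusted p = 0.290) and with median centring (0.21, adjusted p = 0.358).

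Of the 2 targets that act in the cell cycle, Cdkn1a rose strongly and Ccng1, which encodes cyclin G1, did not. Cdkn1a was measured by 10 spots per array (mm7 chr17:27293819-27293878), whose log2 ratios had an SD of 0.012 to 0.034 within an array. Its log2 ratios were -0.73, -1.20, -1.11 and -0.94 on the uninjured arrays and 0.84, 0.66, 0.66, 1.02 and 0.95 on the injured arrays, below the reference in all of the first and above it in all of the second. The rise was 1.82 (SE 0.111, adjusted p = 1.86e-06), or 3.53-fold, and it ranked 68 among the rises of all genes. Within slide 1 it was 1.54, with the uninjured array of that slide the highest of the 4, and without injured 2 and 4 it was 1.81.

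Ccng1 had log2 ratios of -0.52, -0.73, -0.67 and -0.54 on the uninjured arrays and -0.67, -0.60, -0.63, -0.53 and -0.69 on the injured arrays. All 5 injured values lay within the uninjured range, and the difference was -0.014 (SE 0.064, adjusted p = 0.906), or -0.14 within slide 1. Its further probe gave -0.13 (SE 0.074, adjusted p = 0.254 over all probes). Cdkn1a and Ccng1, the genes whose windows held a p53 full site, therefore had changes of 1.82 and -0.014.

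The 2 sestrins among the 10 genes differed in direction. Sesn2, a stress-induced inhibitor of mTORC1 signalling that is also an ATF4 target, had log2 ratios of -2.65, -2.73, -2.45 and -2.41 on the uninjured arrays and -1.65, -1.27, -1.60, -1.44 and -1.53 on the injured arrays. The groups were well apart, and the rise was 1.06 (SE 0.096, adjusted p = 3.13e-05), or 2.09-fold, with 1.17 within slide 1. A dimmer probe of the same gene rose by only 0.40 (SE 0.100, adjusted p = 0.0144 over all probes), so that the size of the rise depends on the probe and the mean of both gave 0.73.

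Sesn1, the sestrin most closely tied to p53, had log2 ratios of 1.16, 0.80, 1.07 and 1.14 on the uninjured arrays and 0.51, 0.77, 0.92, 0.72 and 0.66 on the injured arrays. Uninjured 2 lay among the injured arrays. The change was -0.33 (SE 0.097, adjusted p = 0.0326), 1.25-fold lower, with -0.51 within slide 1, and its further probes gave -0.52 (adjusted p = 0.0630 over all probes) and -0.28 (adjusted p = 0.178). The call was lost when any of uninjured 1, 3 and 4 or injured 1, 2, 4 and 5 was left out (adjusted p between 0.0504 and 0.0981), with the slide as a block (adjusted p = 0.114) and without injured 2 and 4 together (adjusted p = 0.103). It was lost as well with median centring (-0.45, adjusted p = 0.0812) and with the ratios of the scanner software (-0.34, adjusted p = 0.0511).

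Trp53inp1, which encodes a p53-induced stress protein of the nucleus and of autophagosomes, had log2 ratios of -0.82, -1.04, -0.87 and -0.86 on the uninjured arrays and -0.66, -0.27, -0.43, -0.36 and -0.40 on the injured arrays. Injured 1 lay closest to the uninjured arrays, with no overlap. The rise was 0.47 (SE 0.083, adjusted p = 0.00219), or 1.39-fold, and 0.37 within slide 1, where it did not pass as a block (adjusted p = 0.217). A further probe gave 0.13 (SE 0.152, adjusted p = 0.577 over all probes), and the mean of both did not pass (0.30, adjusted p = 0.0587).

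**Figure D2:**
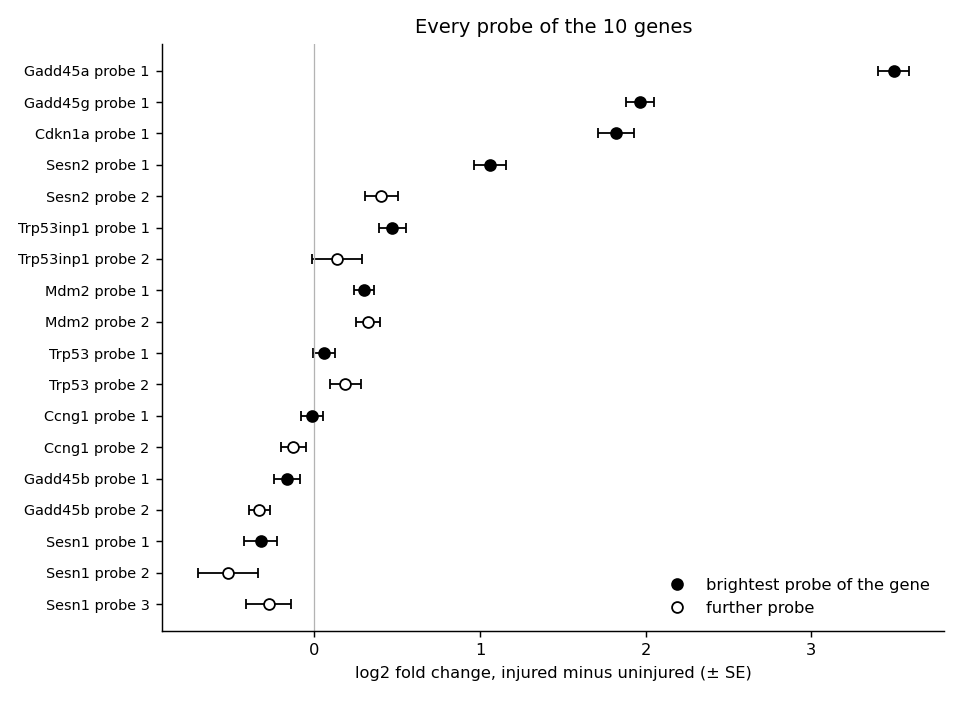
Log2 fold change of every probe of the 10 genes (x axis, injured minus uninjured, bars are SE from limma), ordered by gene, with filled points for the brightest probe, which stands for the gene, and open points for further probes. All 8 further probes had the sign of the brightest one; the widest gaps were those of Sesn2 (0.40 against 1.06) and Trp53inp1 (0.13 against 0.47).

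Only Gadd45a, Gadd45g and Cdkn1a had 1 probe each. For the other 7, the 8 further probes all had the direction of the brightest, and 3 of them passed the threshold over all probes (Gadd45b, Mdm2 and Sesn2).

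Relatives of one family were then compared within each array, where array-wide shifts cancel, with an exact permutation test (two-sided) that took every way to split the 9 arrays into groups of 4 and 5, and p-values were adjusted over 5 pairs. Gadd45a was in no pair, since it was chosen for its rise. The 5 pairs were also chosen with earlier results of these arrays known, so their p-values are no independent support. The splits took no account of the slide, which overlaps injury in large part. The difference of Gadd45g minus Gadd45b went from between 1.24 and 1.56 on uninjured arrays to between 3.49 and 3.65 on injured arrays, a change of 2.13 (exact permutation p = 0.00794, adjusted p = 0.0198). The difference of Sesn2 minus Sesn1 went from between -3.81 and -3.51 to between -2.52 and -2.04, a change of 1.39 (exact permutation p = 0.00794, adjusted p = 0.0198). The smallest p this design can give is 0.00794, so both pairs were at that limit. Within slide 1, Gadd45g minus Gadd45b was 1.561 on uninjured 1 and 3.624, 3.615 and 3.646 on injured 1, 2 and 5. On the same arrays, Sesn2 minus Sesn1 was -3.809 and then -2.16, -2.036 and -2.188.

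Trp53inp1 changed by 0.48 more than Trp53inp2, its near relative in autophagy (exact permutation p = 0.0159, adjusted p = 0.0265), but by 0.31 with the mean of all probes (adjusted p = 0.0794). Within slide 1 their difference was -2.332 on uninjured 1 and -2.282, -1.73 and -1.874 on injured 1, 2 and 5. Mdm2 changed by 0.33 more than Mdm4, the other inhibitor of p53, which did not pass (exact permutation p = 0.0556, adjusted p = 0.0694); it passed without uninjured 4 (0.40, adjusted p = 0.0446). Ccng1 and Ccng2 differed by -0.0093 (exact permutation p = 0.873, adjusted p = 0.873). By its brightest probe, none of the 6 relatives passed the threshold, with changes of 0.068 for Trp73, -0.0044 for Ccng2, -0.0095 for Trp53inp2, -0.026 for Mdm4, -0.032 for Trp63 and -0.16 for Sesn3 (limma adjusted p between 0.111 and 0.974). Sesn3 passed with a further probe (-0.28, adjusted p = 0.0124 over all probes), with the slide as a random block (-0.17, adjusted p = 0.0310) and without uninjured 4 (-0.22, adjusted p = 0.0364), while another probe gave 0.0085.

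**Figure D3:**
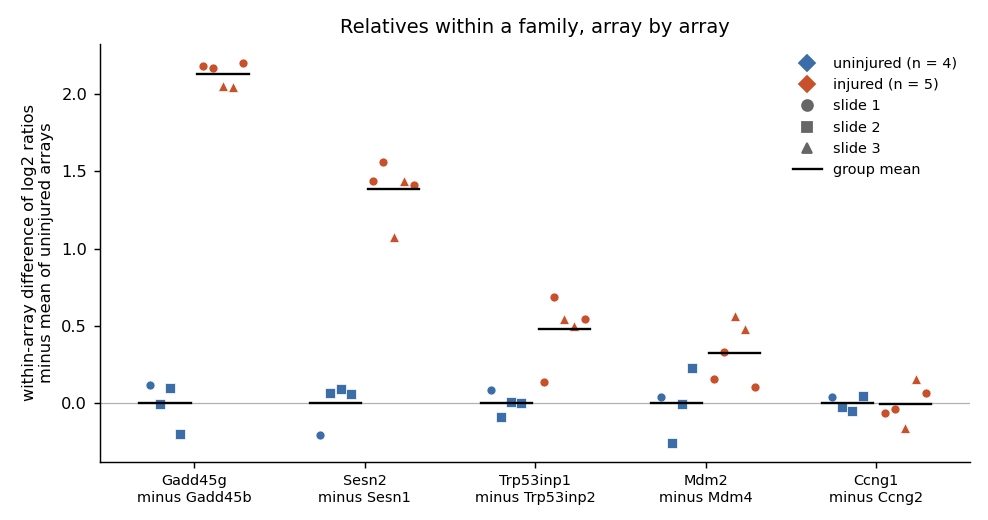
Within-array difference of log2 ratios between 2 relatives, minus its mean over the uninjured arrays (y axis), with blue points for the 4 uninjured and orange points for the 5 injured arrays, shapes for slides and lines for group means. The groups are apart for Gadd45g minus Gadd45b (2.13) and Sesn2 minus Sesn1 (1.39), close for Trp53inp1 minus Trp53inp2 (0.48), and overlap for the other 2 pairs.

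The wider set of p53 targets responded unevenly. Of 40 listed targets, all tested, 20 passed the threshold, 15 higher and 5 lower, with a median change of 0.16. Outside the 10 genes there were 33, of which 10 rose and 4 fell, with a median of 0.12, against 11.4% of all genes higher and 13.9% lower and a median of 0.0014. Pmaip1, which encodes the BH3-only death protein Noxa, was the only one of these 33 to rise more than 1.5-fold. Its log2 ratios were -2.02, -2.58, -2.58 and -2.22 on the uninjured arrays and -0.18, 0.060, -0.82, 0.40 and 0.49 on the injured arrays, a rise of 2.34 (SE 0.244, adjusted p = 8.18e-05).

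The other rises were small. They included Btg2, an antiproliferative gene (0.52, adjusted p = 0.00101), Tnfrsf10b, a death receptor (0.47, adjusted p = 0.0213), Apaf1, the core of the apoptosome (0.44, adjusted p = 0.00241), and Dram1, a lysosomal protein of autophagy (0.42, adjusted p = 0.000366). Lower after injury were Ephx1, an epoxide hydrolase (-0.45, adjusted p = 0.00970), Ddb2, which recognises ultraviolet damage (-0.39, adjusted p = 0.00133), Tigar, a regulator of glycolysis (-0.38, adjusted p = 0.00346), and Rrm2b, a ribonucleotide reductase subunit (-0.21, adjusted p = 0.0442). Of the death genes, Bbc3 rose by 0.35 (adjusted p = 0.0239), and Bax had a change of 0.12 that did not pass (adjusted p = 0.407). Other small rises were those of Aen (0.41, adjusted p = 0.0177), Rps27l (0.31, adjusted p = 0.0135), Plk3 (0.26, adjusted p = 0.00643) and Ppm1d (0.21, adjusted p = 0.0254). Among the targets that did not pass were Zmat3 (0.12, adjusted p = 0.239), Phlda3 (0.37, adjusted p = 0.177), Fas (0.20, adjusted p = 0.171) and Gdf15 (0.12, adjusted p = 0.392). Of the targets named here beside the 10 genes, all but Pmaip1, Ephx1, Ddb2 and Tigar were picked out after their values were seen.

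**Figure D4:**
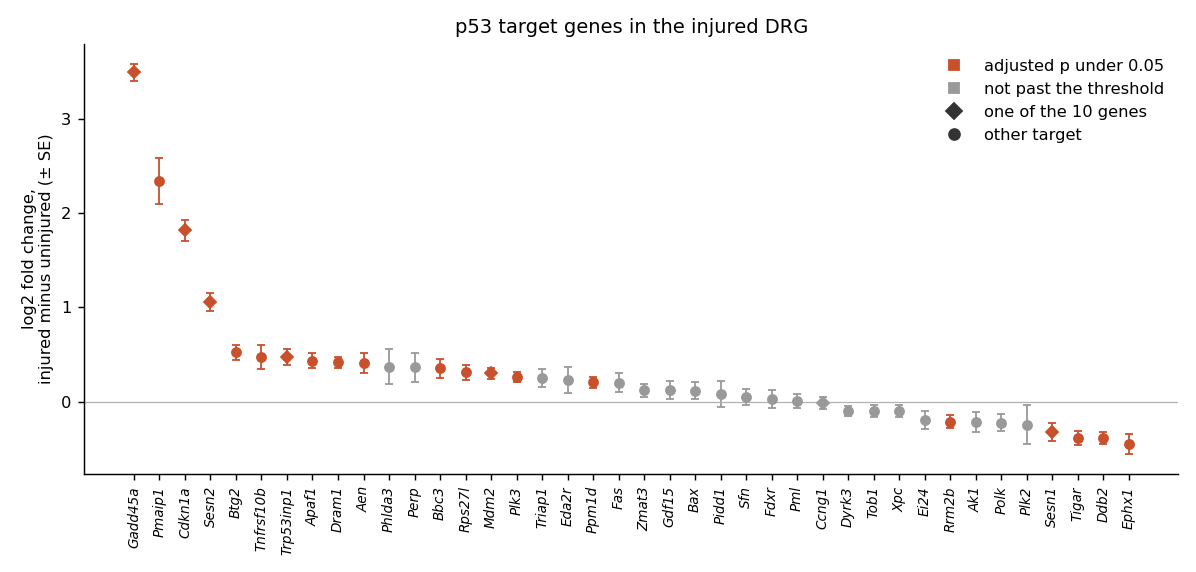
Log2 fold change of the 40 listed p53 targets (y axis, injured minus uninjured, bars are SE from limma), ordered by size, orange where the adjusted p was under 0.05 and grey where not, with diamonds for the genes among the 10 and circles for the others. Gadd45a, Pmaip1, Cdkn1a and Sesn2 stand above 1, and all others lie between -0.45 and 0.52.

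Without Gadd45a, whose rise prompted the question, 19 of 39 passed, 14 higher and 5 lower. With the slide as a fixed block, 5 of the 40 targets passed, all higher, against 1184 of all 20897 genes. Without Gadd45a that was 4 of 39 (Pmaip1, Cdkn1a, Sesn2 and Btg2). With median centring 7 passed, Gadd45a and the same 4 genes higher and Ddb2 and Ephx1 lower. Without Gadd45a that was 6 of 39, not far from the share of all genes (2657 of 20897). Without injured 2 and 4, 14 passed, 11 of them higher, against 3007 of all genes tested. With 1 array left out at a time the count ran from 15 to 21, against 3993 to 5426 of all genes. Fewer of all genes than in the main comparison also passed with the slide as a fixed block and without injured 2 and 4.

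Genes that control p53 had small changes. Of 22 listed regulators, 20 were tested and 7 passed, 4 higher and 3 lower, against 25.3% of all genes, 11.4% higher and 13.9% lower, with a median change of 0.063. Beside Mdm2, higher were Ppp1r13l, the p53 inhibitor iASPP (0.55, adjusted p = 0.00798), and the ubiquitin ligases Rchy1 (0.28, adjusted p = 0.00725) and Cop1 (0.27, adjusted p = 0.00854), all of which act against p53. Lower were Atm, the kinase that signals DNA breaks (-0.42, adjusted p = 0.00347), Usp7, a deubiquitinase of p53 and Mdm2 (-0.24, adjusted p = 0.0177), and Trp53bp2, which promotes p53 function (-0.17, adjusted p = 0.0452), whose call was lost in 17 of 23 alternatives. None of these 7 passed with the slide as a block (adjusted p between 0.138 and 0.408). With median centring, the calls of Mdm2, Rchy1, Cop1, Atm, Usp7 and Trp53bp2 were lost (adjusted p between 0.0630 and 0.464). The rise of Cop1 also depended on the probe, with 0.12 for the mean of its probes (adjusted p = 0.153).

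Of 18 listed genes whose products bind Gadd45 proteins or act next to them, 9 passed, 5 higher and 4 lower, against 25.3% of all genes, 11.4% higher and 13.9% lower. Of those that act in DNA demethylation, Tet3, which oxidises methylcytosine, rose by 1.01 (SE 0.147, adjusted p = 0.000693; 0.46 with the mean of its probes, and 0.67 with the slide as a fixed block, adjusted p = 0.124), and Tdg, which removes the oxidised base, by 0.54 (adjusted p = 0.000256), while Tet1 (-0.43, adjusted p = 0.139) and Tet2 (0.033, adjusted p = 0.777) did not pass. In the MAP kinase branch, Mapk14, which encodes p38α, rose by 0.51 (adjusted p = 0.000199) and Mapk8, which encodes JNK1, by 0.26 (adjusted p = 0.0155). Map3k4, the kinase that Gadd45 proteins activate, fell by 0.27 (adjusted p = 0.0201), and lower as well were Map2k6 (-0.50, adjusted p = 0.000449), Map2k4 (-0.31, adjusted p = 0.00561) and Mapk9, which encodes JNK2 (-0.34, adjusted p = 0.0214). With the mean of all probes, Map2k6 read -0.31, and Mapk8 (0.10, adjusted p = 0.232) and Mapk9 (-0.20, adjusted p = 0.0953) did not pass. With the slide as a block, Map2k6 passed (-0.62, adjusted p = 0.0204), while Tet3 (0.67, adjusted p = 0.124), Tdg (0.47, adjusted p = 0.0710) and Mapk14 (0.46, adjusted p = 0.0629) did not, nor did Mapk8, Mapk9, Map2k4 and Map3k4 (adjusted p between 0.171 and 0.458).

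Of 11 listed factors known to act on Gadd45a, 7 passed, 6 higher and 1 lower, against 25.3% of all genes, 11.4% higher and 13.9% lower. Atf3, a stress-induced factor of the ATF family and a marker of axotomised neurons, had log2 ratios of -0.90, -0.94, -1.06 and -1.09 on the uninjured arrays and 4.06, 4.17, 4.03, 4.20 and 4.25 on the injured arrays, a rise of 5.14 (SE 0.069, adjusted p = 2.76e-11) that ranked 1 among all genes. Jun rose by 1.77 (adjusted p = 0.000336), Pou2f1, which encodes Oct-1, by 0.74 (adjusted p = 0.000114), and Ddit3, which encodes CHOP, by 0.70 (adjusted p = 4.13e-05).

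Atf4 rose by 0.58 (adjusted p = 0.000218) and Nfya, which encodes a subunit of the CCAAT-binding factor NF-Y, by 0.28 (adjusted p = 0.00693). Brca1 fell by 0.23 (adjusted p = 0.0278) and overlapped between groups, and its call was lost in 9 of 23 alternatives. Egr1 (0.32, adjusted p = 0.407), Foxo1 (0.11, adjusted p = 0.403) and Foxo3 (-0.16, adjusted p = 0.106) did not pass. With the slide as a block, Atf3 (5.06, adjusted p = 1.19e-06), Pou2f1 (0.64, adjusted p = 0.0434) and Ddit3 (0.71, adjusted p = 0.0183) passed, and Jun (1.53, adjusted p = 0.0819) and Brca1 (adjusted p = 0.286) did not. Whether any of these factors acted on Gadd45a was not measured.

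Of 8 CDK inhibitors tested, 2 passed, close to the 25.3% of all genes. Cdkn1a rose by 1.82 and Cdkn3, a phosphatase of CDKs, by 0.25 (adjusted p = 0.0258). Cdkn1b (-0.25, adjusted p = 0.568), Cdkn1c (0.19, adjusted p = 0.703) and Cdkn2a (0.17, adjusted p = 0.153) did not pass. Of 12 cell cycle genes that p21 is known to repress, 1 passed and it was higher, Birc5 (0.36, adjusted p = 0.0238), with a median change of 0.22 over the list. After subtracting the uninjured mean, the mean log2 ratio of these cell cycle genes ran from -0.088 to 0.038 over uninjured arrays and from 0.016 to 0.40 over injured arrays, highest on injured 2, where the muscle and red blood cell markers were also high. Neither Cdkn3 (adjusted p = 0.240) nor Birc5 (adjusted p = 0.292) passed with the slide as a block.

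Among the genes whose pattern over the 9 arrays lay closest to that of Gadd45a, by the root mean square distance of log2 ratios after subtracting the uninjured mean, were Cckbr, the cholecystokinin B receptor (0.197), Procr, the protein C receptor (0.202), Sox11, a transcription factor of developing neurons (0.291), and Ucn, the peptide urocortin (0.297). Their changes were 3.70, 3.42, 3.15 and 3.15 against 3.50 for Gadd45a. That of Cckbr depended on the probe: it was 2.07 with the mean of its probes and 0.44 where probes dim in either channel on any array were left out, and its place rests on the brightest probe. None of the other 9 genes was among the nearest 5, and with changes of at most 1.96 (Gadd45g) none could be by this measure. The measure rests on 9 arrays and takes in the size of the step between groups.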

How the data were processed

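DRG RNA (Cy5) and a universal mouse reference (Cy3) were hybridised to 9 Agilent arrays. The authors deposited the scanner output, with spot and background intensity per channel and a log10 ratio, and a table of log2 ratios that, per the labels, was made with limma. The scanner files were analysed, and the deposited log2 ratios, whose scale and direction were checked against the scanner values (slopes of 1.00 to 1.01), served as an alternative.

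Spots flagged as non-uniform or as population outliers were left out (65 to 148 of 43379 per array), because with them the background model of injured 2 was off (mean of -358 against -15.5). Intensities were corrected with normexp (offset 50), normalised by loess within arrays and averaged over repeated spots. Probes with Cy5 well above background on at least 4 arrays were kept, and the brightest probe stood for a gene. Of 41174 probes, 31186 passed, for 20897 genes. Probe positions are on mm7, as the file gives them. The limma test (version 3.58.1, R 4.3.3) with Benjamini-Hochberg adjustment used a threshold of 0.05. It was tested on simulated data without a slide effect, and the permutation test was checked on a made-up set of values.

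The 10 genes, the gene lists and the pairs were chosen with earlier results of these data known, so no p-value over a list is given. Named were all 10 genes with every probe, all 6 relatives, up to 4 rises and 4 falls of each other list among genes past the threshold, and the 5 genes nearest in pattern to Gadd45a, 1 of which is not reported here; other genes were named after their values were seen. The labels tie no samples to animals or cultures, so p-values measure the spread between these samples, which may be technical, and the number of arrays limits the precision. The time of 3 days is that of the labels, and the study also names a shorter one. The ganglia are called L3/L4 as in the study's methods, while its results text names L4. Alternatives covered spot flags, background, normalisation, the dim-probe filter, probe choice, slide, array weights and each array left out; leaving out injured 2 and 4 together was chosen after seeing the data.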

Additional observations from a re-analysis of the deposited data

Results flagged for a closer look

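Of 114 groups of arrays examined (the 10 genes and their further probes, the other named genes and the marker and cell cycle means), 7 held an array set apart from the rest of its group by Dixon's criterion, and chance alone flags about 1 in 20. Among the 10 genes this touched a further probe of Sesn2, which read -0.74 on injured 5, the dimmest array, against -1.22 to -1.10 on the other injured arrays. Injured 1 stood apart for 3 genes. It read -0.58 for Ddb2 (the others -0.75 to -0.71), -0.57 for Ppp1r13l (-0.11 to 0.0042) and -0.21 for Pou2f1 (0.098 to 0.12). Jun read -0.44 on uninjured 4, against 0.29 to 0.34 on the other uninjured arrays, and Usp7 read 1.20 on uninjured 2, against 1.08 to 1.09. After subtracting the uninjured mean, the mean log2 ratio of the cell cycle genes was -0.088 on uninjured 3, against 0.017 to 0.038.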

How the results depend on the processing

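No paired analysis was possible because no label links a sample to an animal and the replicate numbers were given in accession order. Over 23 alternatives, Gadd45g, Cdkn1a and Sesn2 kept their direction and their side of the threshold. With median centring in place of loess, which moved the median of all genes from 0.0014 to -0.053, 2657 genes passed in place of 5281 (36.0% higher, against 45.2%), 4 of the 10 genes and 7 of the p53 targets. With the slide as a fixed block, 1184 genes passed, 4 of the 10 and 5 of the targets; as a random block, with an estimated correlation of -0.21, 7359 passed. Without injured 2 and 4, 3007 genes passed. With 1 array left out, 3993 to 5426 genes, 6 to 7 of the 10 and 15 to 21 of the targets passed.

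The difference of Mdm2 minus Mdm4 passed in the Cy5 channel alone (0.38, adjusted p = 0.0496) and with the mean of all probes (0.30, adjusted p = 0.0132), and ran from 0.24 to 0.40 with 1 array left out; that of Trp53inp1 minus Trp53inp2 was lost with the mean of all probes (0.31, adjusted p = 0.0794).

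Some changes that had not passed turned sign, none of them past the threshold under the setting that turned it. Trp63 read 0.012 with all spots kept, 0.024 without background correction, 0.022 with the scanner's ratio and 0.030 in the Cy5 channel alone. Median centring gave -0.020 for Trp53, -0.0030 for Trp73 and 0.0027 for Ccng1 minus Ccng2. The Cy5 channel gave 0.038 for Ccng1 and 0.12 for Ccng1 minus Ccng2. The mean of all probes gave 0.012 for Mdm4. The slide as a fixed block gave -0.20 for Trp73, 0.0027 for Trp53inp2 and 0.070 for Mdm4, and as a random block 0.0074 for Ccng1 and 0.0073 for Ccng2, which read 0.0015 without injured 2 and 4. With 1 array left out, Ccng1 ran from -0.052 to 0.018, Trp73 from -0.026 to 0.17, Ccng2 from -0.041 to 0.030, Trp53inp2 from -0.038 to 0.0079, Mdm4 from -0.085 to 0.039 and Ccng1 minus Ccng2 from -0.051 to 0.029. The cause of these changes was not tested. Dim probes limit what can be seen of small changes.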
